A study of Mus musculus with 6 samples.

Results

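Lad1, Ybx2 and Trappc6a are 3 mouse genes that are little studied in the heart and had higher signal in knockout than in control hearts. They are 3 of 16593 genes with a symbol on the array and 3 of the 7579 genes tested. They were selected on their log2 differences in this same comparison, as large rises from low control signal, so their own differences are given as a description, with no test. All 4 probes annotated to them are described: 1 for Lad1, 2 for Ybx2 and 1 for Trappc6a. Hearts of 6 female mice were profiled, each mouse on 1 Illumina bead array. The 3 control mice were Nelf-b f/f, with floxed alleles of Nelfb, and the 3 knockout mice were Nelf-b f/f; CreER, with a tamoxifen-activated Cre recombinase added. Both groups were C57BL/6J on regular chow, were given tamoxifen when 8 weeks old, and were fasted for 5 hours before the hearts were taken at 20 weeks. The controls carried no CreER, so the recombinase and the loss of Nelfb cannot be told apart, and which promoter drives CreER is not stated in the labels.

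Nelfb encodes a subunit of the negative elongation factor, which keeps RNA polymerase II paused shortly after it has started a transcript. Lad1 encodes ladinin 1, a protein of the anchoring filaments that fix epithelial cells to their basement membrane, which also binds actin filaments in epithelial cells. Ybx2 encodes MSY2, a Y-box protein with a cold shock domain that binds and stores messenger RNA in mouse male germ cells and oocytes. Trappc6a encodes a subunit of TRAPP, a tethering complex that activates Rab GTPases on the way from the endoplasmic reticulum through the Golgi. Mutation of mouse Trappc6a causes a mosaic loss of coat pigment. The 3 genes lie on different chromosomes and share no protein family.

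The 250 bases before the start site of each gene are shown so that the control regions of the 3 genes, each chosen for its rise, can be compared. They come from RefSeq on GRCm38.p6, where all 3 genes were matched by symbol, and for Ybx2 the first of its listed start sites was used. Capitals mark every match, on either strand, to any of 8 motifs: the TATA box with the letters TATAAA, the GC box with the letters GGGCGG, the CCAAT box, the E-box of MYC and clock factors with the letters CACGTG, the E-box of myogenic factors with the letters CAGCTG, the GATA motif with the letters AGATAA, the cyclic AMP response element with the letters TGACGTCA, and the AP-1 motif with the letters TGACTCA. Sequences run 5′ to 3′ on the strand of the gene, which is the plus strand for all 3.
Lad1, chr1:135818348-135818597: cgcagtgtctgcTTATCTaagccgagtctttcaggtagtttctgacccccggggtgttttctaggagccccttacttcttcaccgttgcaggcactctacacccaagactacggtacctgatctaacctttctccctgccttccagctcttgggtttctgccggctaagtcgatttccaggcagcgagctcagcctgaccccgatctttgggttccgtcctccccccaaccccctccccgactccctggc
Ybx2, chr11:69935649-69935898: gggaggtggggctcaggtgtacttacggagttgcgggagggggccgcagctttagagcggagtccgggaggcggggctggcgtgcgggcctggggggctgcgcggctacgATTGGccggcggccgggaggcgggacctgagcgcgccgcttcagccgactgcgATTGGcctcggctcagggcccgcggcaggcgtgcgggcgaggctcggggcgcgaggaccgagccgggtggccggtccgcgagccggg
Trappc6a, chr7:19508420-19508669: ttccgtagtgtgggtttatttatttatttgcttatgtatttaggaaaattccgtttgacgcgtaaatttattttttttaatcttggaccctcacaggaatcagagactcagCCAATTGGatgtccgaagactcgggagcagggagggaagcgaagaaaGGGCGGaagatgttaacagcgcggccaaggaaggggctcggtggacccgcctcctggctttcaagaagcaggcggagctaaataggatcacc

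No motif of this set occurred in all 3 windows. The Ybx2 window held 2 CCAAT boxes, both read on the opposite strand as ATTGG, the orientation after which Y-box proteins are named. They began 140 and 87 bases before the start site. The Trappc6a window also held 2 CCAAT boxes, one on each strand, which overlap in the palindrome that begins 139 bases before the start site. It held 1 GC box as well, 92 bases before the start site. The Lad1 window held neither, and its single match was a GATA motif on the opposite strand, 238 bases before the start site. Of 32841 promoter windows of the same length, 33.9% held a CCAAT box, 10.1% held 2 or more, 32.7% held a GC box and 9.99% held the GATA motif. The motifs found in none of the 3 windows were held by 12.4% (TATA box), 6.02% (E-box of MYC and clock factors), 13% (E-box of myogenic factors), 1.55% (cyclic AMP response element) and 4.46% (AP-1 motif) of all windows. The windows also differed in base composition. The Ybx2 window was 77.2% G and C with 35 CpG dinucleotides, more than in 97% of windows. The Lad1 window had 57.6% and 11 CpGs, and the Trappc6a window 47.6% and 13, against medians of 52.4% and 6 over all windows.

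The arrays had mean intensities of 169.8 to 310.3 before normalization, and 38.8% to 43.8% of probes were detected per array, at a detection p below 0.05. Levels are log2 values after background correction and quantile normalization, on which the lowest detected signal lay between 4.54 and 4.68 depending on the array. Nelfb, the deleted gene, was lower in every knockout heart than in any control heart, at 7.01, 7.08 and 7.07 in controls against 5.41, 5.46 and 5.46 in knockouts. Its log2 difference was -1.61 ± 0.13 SE (limma, adjusted p = 0.000183), and its other probe had -0.94 ± 0.14 SE. The brighter probe had -0.82 with no background correction and -0.998 in the authors' value table, still called in both. Arrays were placed in groups by their sample records. In the table of intensities before normalization the column headers give all 6 arrays the opposite group name, and under those headers Nelfb would be higher in knockout and every sign below would turn. Cardiomyocyte markers were present, with 5 of the 6 on the array tested (Actc1, Myh6, Myl2, Nppa and Tnni3) and none called. The cardiac troponin I gene Tnni3 read 9.27, 10.43 and 10.90 in controls and 9.31, 8.91 and 9.22 in knockouts, a log2 difference of -1.05 ± 0.32 SE (limma, adjusted p = 0.0948) with control array 1 at the level of the knockouts. The RNA is from whole tissue, so fewer cells of a type and less RNA per cell cannot be told apart.

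Lad1 was near the detection limit in control hearts and clearly above it in knockout hearts. Its level was 4.28, 4.75 and 4.52 on control arrays 1, 2 and 3, and 5.98, 6.12 and 6.12 on knockout arrays 1, 2 and 3. Among the controls array 2 detected it, with a detection value of 0.0138 against 0.549 and 0.0815 on the others, and all 3 knockout arrays did. The lowest knockout heart was 1.23 above the highest control heart on the log2 scale. Before normalization the intensities were 88.8, 115.0 and 77.1 in controls and 149.0, 147.7 and 127.1 in knockouts, and the groups did not overlap there either. The group means were 4.51 ± 0.23 and 6.07 ± 0.08 (SD, n = 3 each). They differed by 1.56 ± 0.15 SE on the log2 scale, which is 2.94-fold. Because 2 of the 3 control values were not above background, the size of this fold rests on a control level that was measured on 1 array only.

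Ybx2 was represented by 2 probes that did not give the same picture. The detected probe read 6.23, 5.67 and 6.21 in controls and 7.46, 7.67 and 7.79 in knockouts, and was detected on all 6 arrays. The groups were 1.23 apart at their closest, and control array 2 was the lowest of the controls. Group means were 6.04 ± 0.32 and 7.64 ± 0.16 (SD, n = 3 each). They differed by 1.60 ± 0.18 SE on the log2 scale, which is 3.04-fold. The second probe was detected on none of the 6 arrays, at 4.14 to 4.18 in controls and 4.16 to 4.42 in knockouts. Its groups overlapped, and no fold is given for it because both groups were below background. Both probes are annotated to the same RefSeq transcript, and where in it they lie was not examined. The difference in Ybx2 is therefore a reading of 1 probe.

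Trappc6a was detected on every array and read 6.18, 5.78 and 5.85 in controls and 7.59, 7.38 and 7.32 in knockouts. The knockout values lay at least 1.15 above any control value. Group means were 5.93 ± 0.21 and 7.43 ± 0.14 (SD, n = 3 each). They differed by 1.496 ± 0.15 SE on the log2 scale, which is 2.82-fold. Before normalization, the intensity of its single probe was 141.3, 160.9 and 98.8 in controls and 298.5, 249.9 and 195.9 in knockouts.

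**Figure D1:**
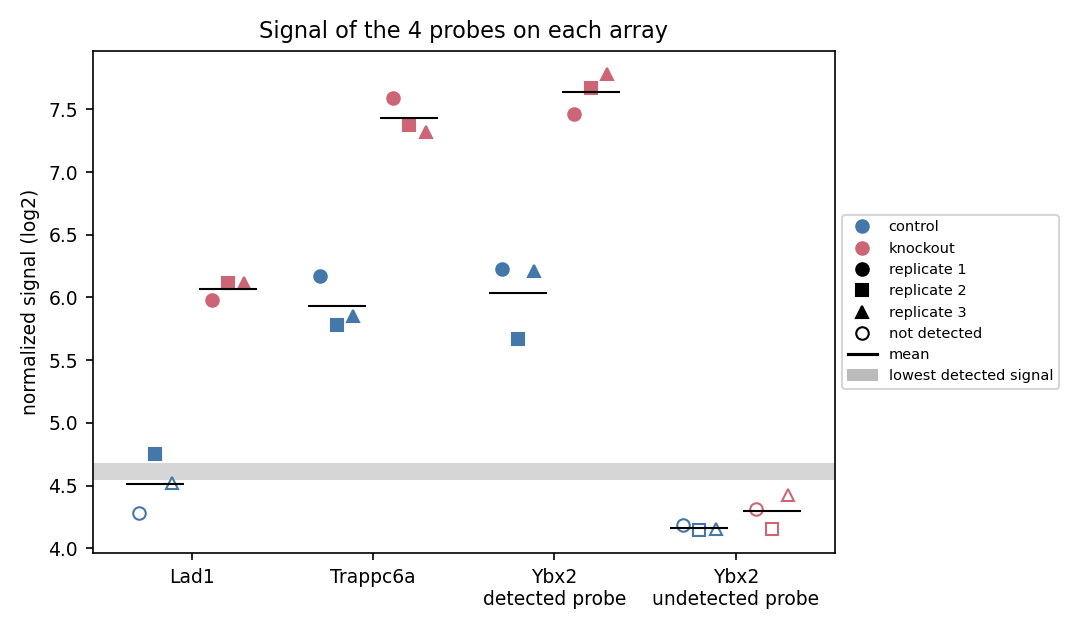
Normalized signal (log2, vertical axis) of the 4 probes of Lad1, Trappc6a and Ybx2 on each of the 6 arrays, with control in blue, knockout in red, shapes for replicate numbers, open symbols for arrays that did not detect the probe, bars for group means and a grey band for the lowest detected signal (4.54 to 4.68). For 3 probes all knockout values lie above all control values, Lad1 controls lie at the band, and the second Ybx2 probe stays below the band in both groups. The genes were chosen for large rises on these same arrays, so this separation follows from the choice. How many of all genes have groups that do not overlap is not given here.

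Within the groups the 3 genes did not vary alike. On control array 2, Ybx2 and Trappc6a had their lowest control values, 0.37 and 0.16 below their control means on the log2 scale, whereas Lad1 had its highest, 0.23 above. Among the knockouts, array 1 had the highest Trappc6a value and the lowest values of Lad1 and Ybx2. With any 1 array left out, the log2 difference ran from 1.44 to 1.67 for Lad1, 1.42 to 1.70 for Ybx2 and 1.42 to 1.62 for Trappc6a. The genes were chosen on these same arrays for groups that lie far apart, so these ranges are a description and test nothing.

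The size of the 3 differences depended on how background was handled. With no background correction the log2 differences were 0.57 for Lad1, 0.97 for Ybx2 and 0.87 for Trappc6a. In the authors' normalized value table they were 0.84, 1.07 and 0.98, where the mean intensity went from 100.03 to 178.3 for Lad1, from 176.8 to 369.1 for Ybx2 and from 169.0 to 332.5 for Trappc6a. Lad1, the gene closest to background, lost most. All 3 were positive under every setting that gave them a value, and the order of the 3 changed between settings. The settings reuse the arrays on which the genes were chosen, so the shared sign is no independent support.

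**Figure D2:**
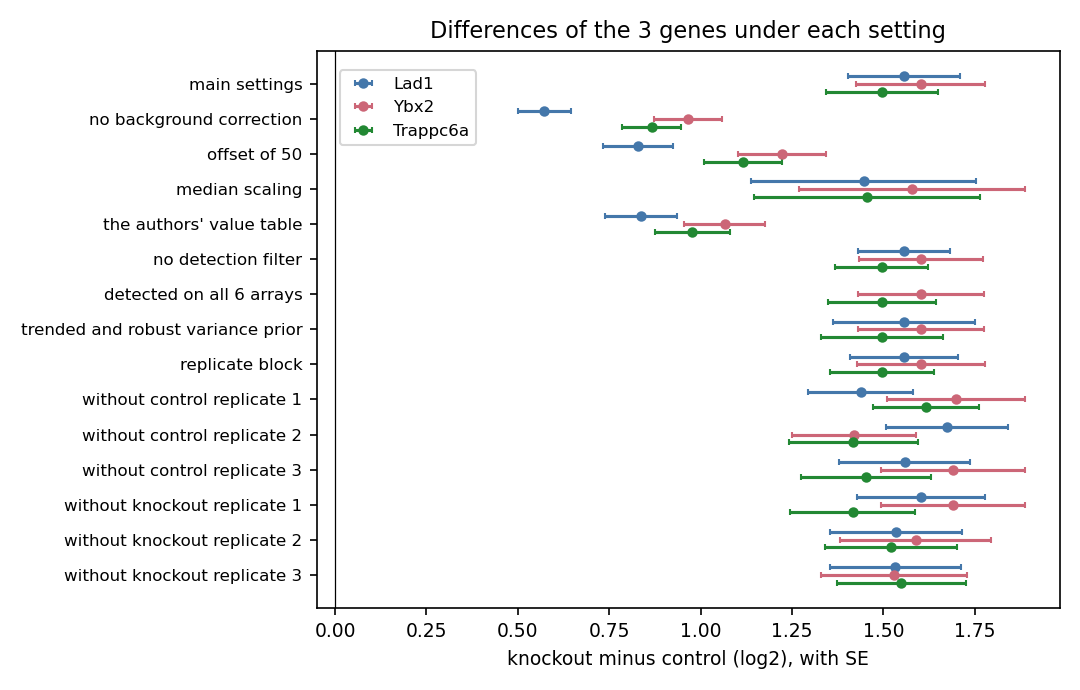
Log2 difference, knockout minus control, with its SE (horizontal axis), of Lad1, Ybx2 and Trappc6a under each way of processing the arrays. All points lie above 0, the lowest at 0.57 for Lad1 with no background correction, and Lad1 has no point where detection on all 6 arrays was required.

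None of the close relatives of Ybx2 that could be tested was called. In the fit across all 7579 genes, 4.25% were called in either direction at a limma adjusted p below 0.05, 2.24% higher and 2.01% lower in knockout. At that share, lists as short as those below are likely to hold few calls or none. An unadjusted p below 0.05 was reached by 1546 of the 7579 genes (20.4%), the share to set beside each such count below. Of 7 Y-box and cold shock domain genes listed beside Ybx2, 4 had probes, 3 were detected widely enough to be tested (Ybx3, Csdc2 and Carhsp1) and 0 were called by limma, with 2 at an unadjusted p below 0.05. Ybx1 is among those not analysed here. The median log2 difference of the 3 was -0.25, against 0.0064 over all genes tested.

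Carhsp1, a cold shock protein that binds messenger RNA, came closest to a call among these relatives. It read 6.92, 7.06 and 6.98 in controls and 7.32, 8.15 and 7.53 in knockouts, a log2 difference of 0.68 ± 0.20 SE (limma, adjusted p = 0.0789). Knockout array 2 stood highest. With an offset of 50, in the authors' value table and with a trended and robust variance prior it passed the threshold (adjusted p = 0.0430, 0.0326 and 0.0168). Without knockout replicate 2 the difference was 0.44 (adjusted p = 0.216), and median scaling gave an adjusted p of 0.792.

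Ybx3 encodes a Y-box protein that represses translation and is made in testis and muscle. Its brightest probe read 6.23, 6.33 and 6.53 in controls and 5.95, 5.81 and 6.07 in knockouts, a log2 difference of -0.42 ± 0.14 SE (limma, adjusted p = 0.129). Its other probes had differences of the opposite sign, 0.51 ± 0.16 SE and 0.32 ± 0.19 SE, with adjusted p of 0.104 and 0.383 in a limma fit over all 10407 detected probes, which was added after seeing the data. The probe with 0.51 is annotated to another transcript than the other 2. The direction of Ybx3 thus differs by probe, and none of the 3 was called. Csdc2, a cold shock gene known from brain, had -0.25 ± 0.16 SE (adjusted p = 0.414). Lin28a, an inhibitor of let-7 maturation, had 2 probes, detected on 1 array at most.

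Genes of other proteins that store, silence or bind messenger RNA in germ cells and elsewhere gave 0 calls by limma among 12 tested, with 3 at an unadjusted p below 0.05. Ddx6, a helicase of silenced messenger RNA granules, had -0.58 ± 0.15 SE (limma, adjusted p = 0.0512), at 7.13 to 7.54 in controls and 6.71 to 6.85 in knockouts. Its adjusted p was between 0.0190 and 0.0386 with no background correction, an offset of 50, the authors' value table, detection on all 6 arrays, a trended and robust variance prior, or without control replicate 1. The difference was -0.37 with no background correction, and with the mean of its detected probes it was -0.36 (adjusted p = 0.181). The poly(A)-binding protein gene Pabpc4 had -0.40 ± 0.14 SE (adjusted p = 0.132), and passed with no background correction, an offset of 50, the value table or the trended prior (adjusted p from 0.0356 to 0.0499). Eif4enif1, whose product carries the cap-binding protein into the nucleus and into RNA granules, had 0.39 ± 0.14 SE (adjusted p = 0.141).

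Other TRAPP subunits gave no call. Of 14 subunit genes listed beside it, 11 had probes and 7 were tested, and 0 were called by limma, with 1 at an unadjusted p below 0.05. Their log2 differences ran from -0.46 to 0.10, with a median of -0.04. Trappc6b, whose product takes the same place in the complex, is not analysed here.

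Among the core subunits, Trappc1 had 0.04 ± 0.14 SE, Trappc3 0.10 ± 0.14 SE, Trappc4 -0.14 ± 0.15 SE and Trappc5 -0.04 ± 0.27 SE, with limma adjusted p from 0.632 to 0.948. The Trappc5 probe lay close to the detection limit and was detected on 2 arrays of each group. Trappc2l, an adaptor subunit, had the largest difference, from 9.49, 9.66 and 9.63 in controls to 9.01, 9.20 and 9.20 in knockouts. Trappc2l had a log2 difference of -0.46 ± 0.14 SE (limma, adjusted p = 0.0844). It passed the threshold with no background correction, an offset of 50, the authors' value table and a trended and robust variance prior (adjusted p from 0.0146 to 0.0222). The subunits that set the larger complexes apart had -0.26 ± 0.24 SE for Trappc9, of TRAPP II, and -0.03 ± 0.15 SE for Trappc13, of TRAPP III (adjusted p = 0.599 and 0.937). Trappc8 and Trappc11 were detected on no array, and Trappc2 and Trappc12 on 1 array at most. Further probes of Trappc1, Trappc3 and Trappc4 had differences from -0.09 to 0.41, none of them called.

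**Figure D3:**
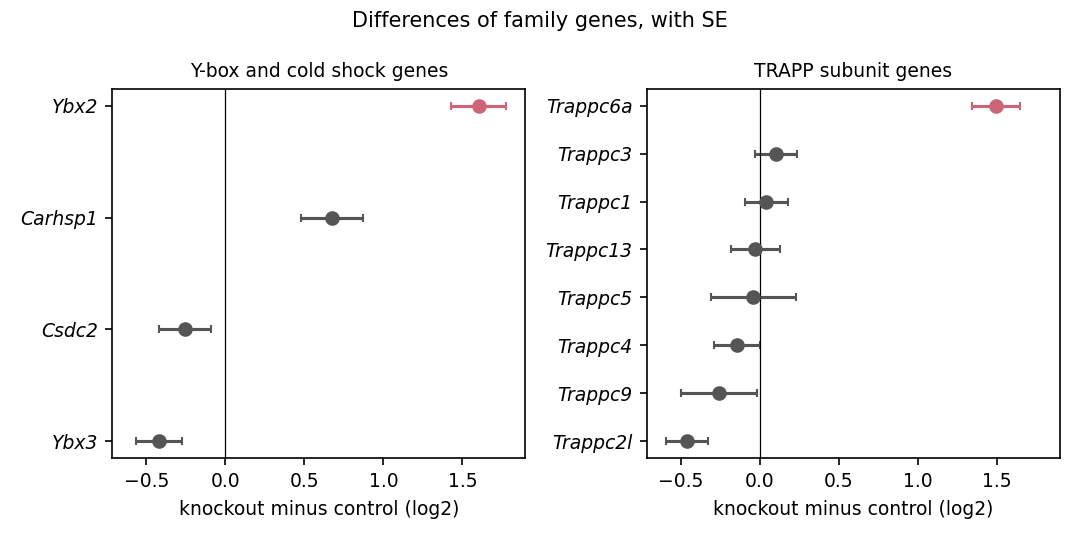
Log2 difference, knockout minus control, with SE (horizontal axis), for tested genes of the Y-box and cold shock family (left) and of TRAPP subunits (right), with Ybx2 and Trappc6a in red. Ybx2 (1.60) and Trappc6a (1.496) were chosen for their rise, and the other genes lie between -0.46 and 0.68.

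The Rab GTPases that TRAPP activates and the tethers and SNAREs of the early Golgi gave 0 calls by limma among 13 tested, with 2 at an unadjusted p below 0.05 and a median log2 difference of 0.22. The Golgi matrix gene Golga2 had -0.46 ± 0.19 SE, the SNARE gene Sec22b 0.30 ± 0.13 SE and Rab11a, of recycling endosomes, 0.30 ± 0.14 SE. Their adjusted p ran from 0.207 to 0.247. Rab11a lay close to the detection limit, at 4.51 to 4.78 in controls and 4.87 to 5.02 in knockouts. Without control replicate 1 Golga2 passed the threshold, at -0.67 with an adjusted p of 0.0473.

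Lad1 has no close relative in these lists, so the genes of the structures it belongs to are given. Of 17 genes of epithelial anchorage to the basement membrane, 14 had probes, 5 of these were detected on no array and 7 were tested. By limma 0 were called, and 0 had an unadjusted p below 0.05. The smallest p belonged to Itgb4, the integrin chain of hemidesmosomes (0.29 ± 0.15 SE), followed by Dst, a linker of keratin filaments (-0.21 ± 0.18 SE), and the laminin gene Lamb3 (-0.16 ± 0.16 SE), with adjusted p from 0.298 to 0.627. Itgb4 lay close to the detection limit, at 4.50 to 4.64 in controls and 4.64 to 5.095 in knockouts. Col17a1, a partner of ladinin in anchoring filaments, had 0.04 ± 0.16 SE at a signal close to the detection limit (4.34 to 4.76).

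Basement membrane genes of the heart itself gave no call either. Of 12 tested, 0 were called by limma, 4 had an unadjusted p below 0.05, against 20.4% of all genes, all 4 with lower signal in knockout, and the median log2 difference was -0.13. The laminin gene Lamb2 read 10.11, 9.84 and 10.46 in controls and 9.50, 9.50 and 9.61 in knockouts. Lamb2 had a log2 difference of -0.60 ± 0.17 SE (limma, adjusted p = 0.0712). It passed with no background correction, an offset of 50, the authors' value table and a trended and robust variance prior (adjusted p from 0.00553 to 0.0279). The laminin gene Lama2 had -0.48 ± 0.16 SE and the collagen gene Col4a2 -0.30 ± 0.13 SE (adjusted p = 0.123 and 0.234). Among desmosome genes 0 of 3 were called by limma, with 1 at an unadjusted p below 0.05: Pkp2 (plakophilin 2) had 0.40 ± 0.15 SE (adjusted p = 0.171, and 0.0476 with the trended prior), Ppl (periplakin) 0.32 ± 0.22 SE and Dsg2 (desmoglein 2) -0.08 ± 0.15 SE.

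Some neighbours of the 3 genes are known for muscle, and how often other genes have such neighbours was not counted. By RefSeq order Lad1 stands between Tnni1 and Tnnt2, which encode slow skeletal troponin I and cardiac troponin T. Ybx2 is next to Slc2a4, which encodes the insulin-responsive glucose transporter, and Trappc6a stands 4 genes from Ckm, the muscle creatine kinase gene. The 5 nearest protein-coding genes on each side of each were examined, 30 in all, of which 23 had probes and 16 were tested. By limma 0 were called higher and 1 lower, and the median log2 difference was 0.05. An unadjusted p below 0.05 was reached by 4 of the 16, 3 with higher and 1 with lower signal in knockout, against 20.4% of all genes.

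Around Lad1, Tnni1 was detected on no array and Tnnt2 is not analysed here. The p53-induced Phlda3 had 0.47 ± 0.21 SE, the microtubule-binding Nav1 0.24 ± 0.15 SE, the LIM protein gene Csrp1 0.12 ± 0.15 SE and the membrane protein gene Tmem9 -0.07 ± 0.16 SE, with adjusted p from 0.232 to 0.842.

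Around Ybx2 no tested neighbour was called. Slc2a4 had -0.30 ± 0.16 SE and the translation factor gene Eif5a 0.33 ± 0.13 SE (adjusted p = 0.317 and 0.188), the latter with an adjusted p of 0.0367 when no background was corrected. Gps2, of the NCoR corepressor complex, had 0.07 ± 0.16 SE, the Elongator gene Elp5 -0.24 ± 0.17 SE, the nuclear envelope phosphatase gene Ctdnep1 -0.01 ± 0.13 SE and the autophagy gene Gabarap 0.02 ± 0.14 SE. Their adjusted p ran from 0.488 to 0.980.

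Around Trappc6a, Bloc1s3, the adjacent gene on one side and a subunit of a complex for lysosome-related organelles, had -0.05 ± 0.16 SE, and Nkpd1 on the other side is not analysed here. Ckm had 0.32 ± 0.18 SE, the kinase gene Mark4 0.03 ± 0.19 SE, Ppp1r37, for a regulator of protein phosphatase 1, 0.44 ± 0.16 SE and the SMN complex gene Gemin7 0.20 ± 0.15 SE, with adjusted p from 0.153 to 0.947. Clasrp, a splicing factor gene 5 places away, fell. It read 5.84, 5.85 and 5.65 in controls and 5.28, 4.47 and 4.75 in knockouts, a log2 difference of -0.95 ± 0.19 SE (limma, adjusted p = 0.0234). It was detected on 5 of the 6 arrays, and its value on knockout array 2 was below that array's lowest detected signal (4.66). Knockout array 3 was close to its own (4.68), so the size of the difference rests partly on values near background. The difference was smaller with no background correction (-0.33), an offset of 50 (-0.50) and in the authors' value table (-0.50), where it was still called. The call was lost with median scaling (adjusted p = 0.150) or without the detection filter (0.0937), and also on leaving out control replicate 2 (adjusted p = 0.0768), control replicate 3 (0.0597), knockout replicate 2 (0.0801) or knockout replicate 3 (0.0682).

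**Figure D4:**
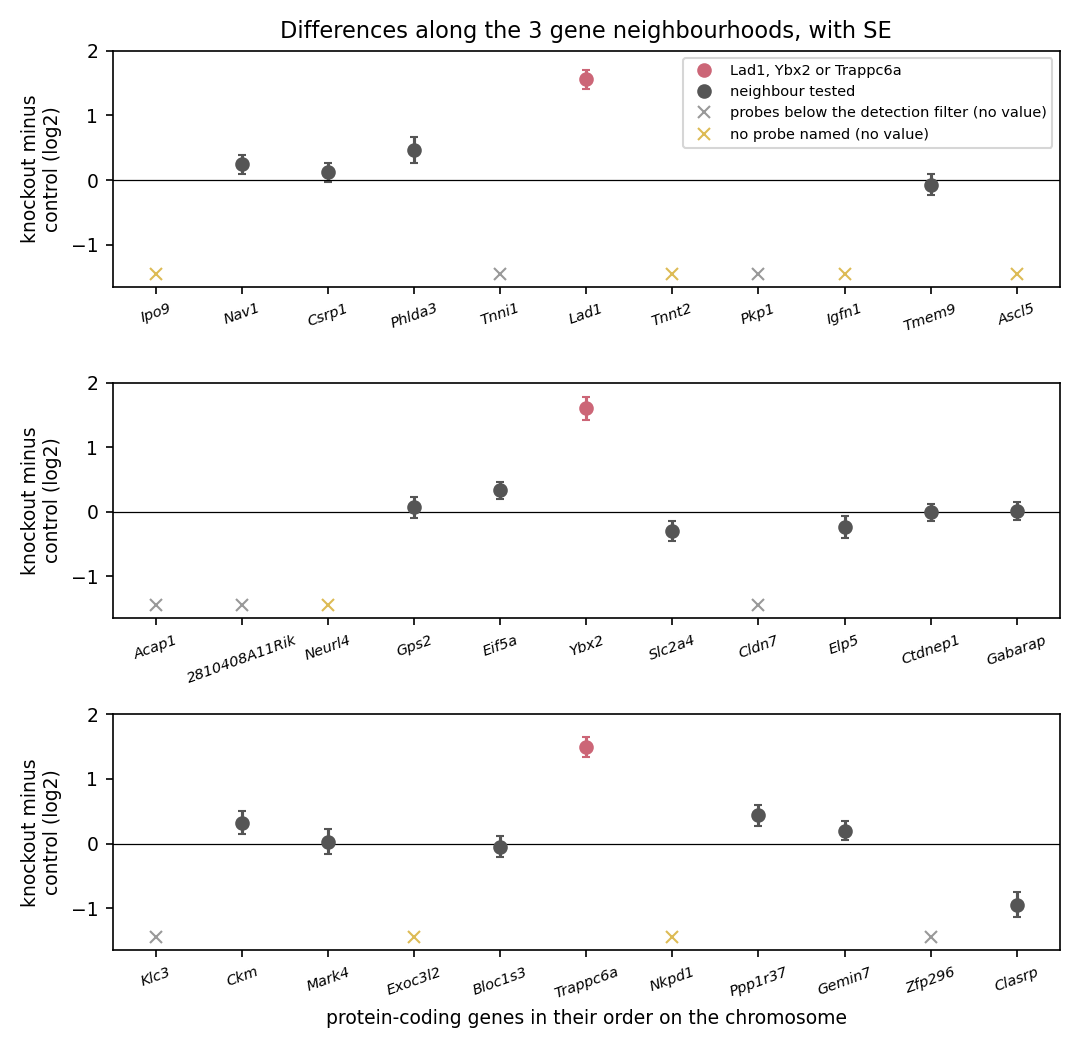
Log2 difference, knockout minus control, with SE (vertical axis), of Lad1, Ybx2 and Trappc6a (red) and of the 5 nearest protein-coding genes on each side (grey), placed in chromosome order and not to distance. Crosses at the bottom mark genes with no value. The tested neighbours lie between -0.95 (Clasrp) and 0.47 (Phlda3).

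Genes whose pattern over the 6 arrays was most like each of the 3 were named by Pearson's r, as a description over 6 arrays. The groups lie apart for all 3, so a high r largely restates the group difference. For Lad1 they were the skeletal actin gene Acta1 (r = 0.992), Klhl15 (0.989), the histone gene H2bc15 (0.988), the ceramide kinase gene Cerk (0.988) and Aamdc (0.987). For Ybx2 they were the glycolytic gene Tpi1 (0.997), the histone genes H3c4 (0.997), H2ac18 (0.995) and H2bc9 (0.993), and the nucleoside diphosphate kinase gene Nme3 (0.994). For Trappc6a they were the mitochondrial phosphatase gene Ptpmt1 (0.998), Klhl17 (0.994), the cleavage factor gene Cstf3 (0.993), Josd2 (0.993) and the tyrosylprotein sulfotransferase gene Tpst2 (0.992). The sizes of the group differences of these genes varied widely, from 0.29 for Cerk to 2.68 for Acta1 on the log2 scale. Klhl15, Cerk, Tpi1, Klhl17 and Tpst2 were not called (limma, adjusted p from 0.0737 to 0.226). Klhl15 read 4.41 to 4.54 in controls and 4.74 to 4.80 in knockouts, close to the detection limit. No gene was named for more than 1 of the 3.

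Most markers on the array for the cell types in which Lad1 and Ybx2 are best known were detected on no array. A probe that is not detected does not show that its gene is silent, as the 2 Ybx2 probes show. Of 7 epithelial and mesothelial markers on the array, the keratin genes Krt8, Krt18 and Krt19 and Msln were detected on no array. The 3 tested (Cdh1, Upk3b and Wt1) had log2 differences of 0.03 to 0.57, none called. By limma 1 of the 3 had an unadjusted p below 0.05, with higher signal in knockout, against 20.4% of all genes. The urothelial and mesothelial gene Upk3b had 0.57 ± 0.16 SE (limma, adjusted p = 0.0735). It read 4.86, 5.12 and 5.15 in controls and 5.61, 5.37 and 5.86 in knockouts. The 3 markers' summed signal on the linear normalized scale was 123.4 to 137.6 in controls and 132.3 to 163.2 in knockouts. Of 7 germ cell markers, Prm1, Tnp1, Tnp2, Zp3 and Sycp3 were detected on no array. The 1 tested, Ddx4, had 0.0056 on the log2 scale, with a linear signal of 24.8 to 35.2 in controls and 21.5 to 32.5 in knockouts. On the log2 scale Ddx4 read 4.63 to 5.14 in controls and 4.42 to 5.02 in knockouts, close to the detection limit, so its difference says little. Of 7 genes listed for brown adipocytes, not all of them particular to that cell type, Ucp1, Dio2, Elovl3, Ppara and Prdm16 were detected on no array. Cidea fell (-0.65, limma adjusted p = 0.0448), a call lost with median scaling, with no detection filter and without any 1 array other than knockout replicate 2, and Cox8b, which heart also makes, was not called. Among 3 genes tested from a skeletal muscle list Acta1 rose, while Myh1, Myh4 and Tnnt3 were detected on no array. Acta1 and Ckm of that list read 10.78 to 11.28 and 11.83 to 12.19 in control hearts, so they are not particular to skeletal muscle here. Among 3 smooth muscle markers Acta2 fell (adjusted p = 0.0299) and lost its call with median scaling, without the detection filter, and on leaving out control replicate 2 or 3 or knockout replicate 2 or 3. The 6 fibroblast, 6 endothelial, 3 macrophage, 2 white adipocyte and 3 red blood cell markers tested gave 0 calls by limma, with 1 of them, the white adipocyte marker Lep, at an unadjusted p below 0.05. The red blood cell sum ran from 1584 to 10256 in controls and 5952 to 16694 in knockouts. Whether any of these cell types has a part in the signal of the 3 genes was not tested beyond these values.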

How the data were processed

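Heart RNA of 6 mice was measured on bead arrays, 3 control and 3 knockout. The deposited intensity values, not normalized, come with detection p-values, per the file headers. The deposited value table holds intensity values that the authors normalized by a method not given in the sources used here. Its 6 columns have medians of 97.5 to 97.6, and it is linear and not centred. The submitters' processing notes name GenomeStudio. Each array of the first table was assigned to the sample record whose column has its rank order (Spearman rho 1, against at most 0.854 for other pairs). All 6 headers carry the other group name, which was found on comparing the tables.

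Background correction and quantile normalization used neqc (offset 16, limma 3.58.1, R 4.3.3). Of 25696 probes, 10407 were kept, those detected (p below 0.05) on 3 or more arrays, and the brightest probe stood for its gene, giving 7579 genes. Symbols came from the platform annotation (23977 probes), updated through RefSeq. Knockout was tested against control in limma by lmFit and eBayes, 2-sided, Benjamini-Hochberg adjusted over all genes and called below 0.05. Errors of differences are limma's SE, and only 6 arrays limit the precision. The fit was checked on simulated data. Python 3.11.15 with matplotlib 3.10.9 drew the figures.

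The 3 genes and the lists were chosen with earlier results of these data known. Named were all tested genes of the 2 families and of the neighbourhoods, called genes or the 3 smallest p of other lists, called markers, and the 5 genes of highest r. Col17a1, Tnni3, Upk3b, Lep and undetected genes were named after their values were seen. Alternatives covered the background correction, offset, scaling, the value table, the detection filter, the probe for a gene, the variance prior, a replicate block and leaving out each array. Labels do not say that replicate numbers mark pairs: deviations of same-numbered arrays correlated at -0.06 to -0.0004. Protein sequences were not used here.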

Additional observations from a re-analysis of the deposited data

How the results depend on the processing

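Lad1, Ybx2 and Trappc6a, chosen on these same arrays, kept a positive difference under each alternative that gave them a value. Lad1 has none with detection required on all 6 arrays. With no background correction, an offset of 50 or the authors' value table, the log2 difference was 0.57, 0.83 and 0.84 for Lad1, 0.97, 1.22 and 1.07 for Ybx2, and 0.87, 1.12 and 0.98 for Trappc6a. The undetected Ybx2 probe had 0.14, a difference between values below background that gives no fold.

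Over all genes the calls numbered 170 higher and 152 lower. They numbered 295 and 267 with no background correction, 290 and 268 with an offset of 50, 33 and 21 with median scaling, 289 and 291 in the authors' value table, 81 and 61 with no detection filter and 321 and 324 with a variance prior that was trended and robust. With 1 array left out there were 56 to 168 higher and 44 to 233 lower. The higher share of calls was 52.8%, 41.9% without control replicate 1. The cause of these changes was not tested.

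Y-box relatives had 0 calls, and 1 with an offset of 50, the value table or the trended prior. TRAPP subunits and heart basement membrane genes had 0 calls each, and 1 each with no background correction, an offset of 50, the value table or the trended prior. Desmosome genes had 1 with the trended prior. Stored-mRNA genes had 0, 2 with no background correction, an offset of 50, the value table or the trended prior, and 1 with detection on all 6 arrays; leaving out 1 array gave 0 to 2. Rab and Golgi genes had 0, and 0 to 1 with 1 array left out. Epithelial anchorage genes had 0 throughout. Neighbours had 1 call, 2 with no background correction, 0 with median scaling, no detection filter or detection on all 6 arrays, and 0 to 1 with 1 array left out. A tally of single genes covered Nelfb, tested genes of the 2 families and the neighbourhoods, those picked by p from other lists, and called markers. In it 24 alternatives gained a call, 20 lost one and 632 changed none. None turned the sign of a called difference. Other genes named in the text, such as Upk3b, Tnni3, Lep and Col17a1, were not in this tally.

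Replicate numbers do not mark pairs in the labels. With the number as a replicate block, 92 genes were called higher and 79 lower, and the list counts stayed as they were. Of the called genes in the tally above, Cidea lost its call (limma, adjusted p = 0.0771).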
